A study of Sus scrofa with 23 samples.

Results

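Cartilage of the medial femoral condyle, in the knee, was compared with cartilage of the medial part of the humeral condyle, in the elbow, in pigs without osteochondrosis. The arrays were chosen by their labelled status, non-affected, which held for 11 of the 23 arrays of the study, 5 of the femur and 6 of the humerus. Femoral arrays 1 and 2 differed by a standard deviation of only 0.214 over the probe sets and were averaged as femur 1, so that 4 femoral samples (femur 1, 3, 4 and 5) stood against 6 humeral samples, 10 of 21 samples in all. All pigs belonged to a crossbred population of Duroc and Pietrain, sampled as sib pairs in which one animal had osteochondrosis and the other did not. No treatment, age or sib number is given in the sources used here, and no label ties an array to an animal, so each p-value rests on the spread among samples that may in part be technical. Samples are numbered within their group in the order of deposition, and the numbers pair nothing. The affected samples of the same sites, 4 of the femur and 7 of the humerus after averaging 1 near-identical pair of arrays, served as a second set in which the same contrast could be measured. Total RNA was hybridised to the Affymetrix Porcine Genome Array, whose probe sets each read a stretch of 1 transcript, several for some genes, and every value below is the log2 signal of a probe set. The lowest possible value is 4 (16 on the linear scale), so a value at this floor gives only an upper limit of the level in that sample.

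Articular cartilage of a growing pig is more than the gliding surface of the joint. Its deep layer is growth cartilage, in which chondrocytes enlarge (hypertrophy), mineralise their matrix and are replaced by bone as vessels, osteoclasts and marrow cells move in. COL10A1, ALPL and IBSP mark the hypertrophic and mineralising steps, ACP5 the osteoclasts that resorb mineralised matrix, and COL2A1, ACAN and HAPLN1 the hyaline matrix itself. Skeletal elements of the fore- and hindlimb also carry different sets of patterning transcription factors, among them genes of the HOX clusters.

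All 10 samples carried the transcripts that define hyaline cartilage at high levels. COL2A1, the main collagen of cartilage, lay at 11.63 to 12.27 in the femur and 11.82 to 12.59 in the humerus, and ACAN, the large proteoglycan aggrecan, at 13.06 to 13.67 and 13.38 to 14.02. The arrays of both sites differed in overall level as well. Array medians were 6.04 to 6.10 in the femur and 6.17 to 6.32 in the humerus, and 3.85% to 4.50% of the probe sets lay at the floor in the femur against 1.48% to 2.35% in the humerus. The mean of the hybridisation controls, which are added after the RNA is labelled and hold no pig transcript, was 11.89 ± 0.06 in the 4 femoral samples and 10.90 ± 0.08 in the 6 humeral ones (mean ± SD). Each of these measures separated the sites without overlap (two-sided exact permutation test p = 0.00952, the smallest that 4 against 6 samples allow, adjusted p = 0.0171 over 9 array measures), and the affected arrays split in the same way, at 11.85 to 11.96 and 10.70 to 10.95 for the hybridisation controls. The difference between the 3′ and 5′ probe sets of actin, a sign of RNA length, also separated the non-affected sites, at 2.43 to 2.86 in the femur and 2.99 to 3.55 in the humerus, but overlapped in the affected arrays (2.67 to 3.07 and 2.63 to 3.505), and that of GAPDH overlapped (0.626 to 0.705 and 0.421 to 0.996). Joint and array level therefore cannot be told apart, so the totals of called probe sets are also given after quantile normalisation, which gives every array the same distribution. Counts for gene lists are on the deposited scale unless stated. Along the first principal component of the 10 samples (44.3% of the variance) the femoral samples lay from -67.4 to -40.6 and 5 humeral samples from 10.9 to 55.1, and humerus 5 lay between them at -2.32.

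A large share of the measured transcripts differed between both joints. limma with Benjamini-Hochberg adjustment called 5972 of 23999 probe sets (24.9%) at an adjusted p under 0.05, 1928 of them higher in the femur (8.03%) and 4044 lower (16.9%). Every difference below is femur minus humerus on the log2 scale, over 4 and 6 samples, so a negative value is lower in the femur. The direction of the split depended on the scale. After quantile normalisation 6105 were called (25.4%), 3476 higher (14.5%) and 2629 lower (11%), and the median difference over all probe sets moved from -0.08 to 0.06. With each array centred on its median 6352 were called (26.5%), 3901 higher (16.3%) and 2451 lower (10.2%), at a median difference of 0.10. All 1928 higher calls were also called higher after quantile normalisation, and 2629 of the 4044 lower calls (65.0%) were still called lower. On the deposited scale, large differences lay mainly on the humeral side. There 1317 of the lower calls exceeded 1 log2 unit and 51 exceeded 2, against 186 and 21 of the higher calls. Sizes were not counted on the other scales, which shift the differences towards the femur. The ranges of both groups did not overlap for 1350 of the higher calls (70.0%) and 2431 of the lower calls (60.1%), which are selected for separation. Over all 23999 probe sets all femoral samples lay above all humeral ones for 1529 (6.37%) and below them for 2606 (10.9%). Without humerus 5 there were 6339 calls (26.4%), 2023 higher (8.43%) and 4316 lower (18%), and with quantile normalisation as well 6546 (27.3%), 3701 higher (15.4%) and 2845 lower (11.9%). Leaving out any other single sample gave fewer calls than the full set. Without femur 3 there were 3780 calls, 1203 higher and 2577 lower, and without humerus 6 there were 4032, 1256 of them higher. Without humerus 4 there were 4365 calls and without humerus 3 there were 4489.

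**Figure D1:**
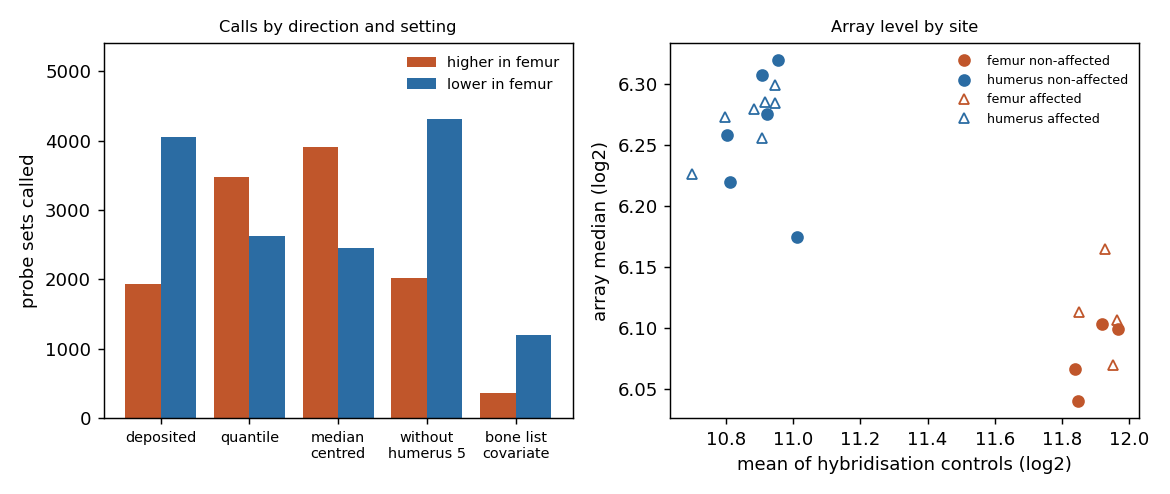
Left, the number of probe sets called at an adjusted p under 0.05 in each direction on the deposited scale, after quantile normalisation, after centring each array on its median, without humerus 5 and with the mean of the bone list as a covariate; the deposited scale gave 1928 higher and 4044 lower calls, quantile normalisation 3476 and 2629. Right, the median of each sample against its mean hybridisation control (log2), with filled circles for non-affected and open triangles for affected samples; all femoral samples lie at 11.84 or above on the horizontal axis and all humeral samples at 11.01 or below.

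The largest difference of the comparison lay in transcripts of mineralising cartilage, which were low in 3 of the 4 femoral samples. IBSP, bone sialoprotein, which nucleates mineral in bone and calcified cartilage, was 4.0, 4.0, 9.42 and 4.66 in femur 1, 3, 4 and 5, and ran from 6.41 to 13.01 with a median of 12.72 in the humerus. Femur 1 and 3 thus lay at the floor, femur 4 stood above the other femoral samples, and humerus 5 was the lowest humeral sample at 6.41, so that the groups overlapped. The difference was -6.10 ± 1.38 (SE; adjusted p = 0.0102). ALPL, the alkaline phosphatase that frees phosphate for mineral, was 4.01, 4.70, 9.98 and 4.53 in the femoral samples and ran from 4.64 to 12.01 with a median of 11.48 in the humerus, a difference of -4.49 ± 1.51 (SE; adjusted p = 0.0482). Humerus 5, at 4.64, carried as little of it as most femoral samples, and femur 4 nearly as much as the lowest of the other humeral samples. COL10A1, the collagen of hypertrophic chondrocytes, was 4.01, 4.0, 10.11 and 4.0 in the femur and ran from 4.01 to 13.35 with a median of 11.47 in the humerus, where humerus 5 again was the exception at the floor. Its difference of -5.07 ± 1.76 (SE) did not pass the threshold (adjusted p = 0.0538). Fewer cells of a type and less RNA per cell cannot be told apart in such samples.

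Over the 8 measured genes of the hypertrophic list, each read by its brightest probe set, 4 were lower in the femur and 0 higher, with a median difference of -1.64. Over all 6765 named genes read in the same way, 17.8% were called lower and 8.51% higher, with a median of -0.10, and after quantile normalisation 11.1% and 15.6%, which is the background for each list below. Besides IBSP and ALPL the lower genes were PTH1R, the receptor through which parathyroid hormone-related protein delays hypertrophy, at -1.84 (adjusted p = 0.0473), and the collagenase MMP13, at -1.43 ± 0.30 (SE; adjusted p = 0.00770). MMP13 was 4.06, 4.74, 4.87 and 4.85 in the femoral samples and ran from 5.38 to 6.82 with a median of 6.10 in the humerus, with no overlap between the sites. IHH, the hedgehog ligand of prehypertrophic chondrocytes, was not called, at 0.15, nor was SPP1, osteopontin, at -1.0. PTH1R missed the threshold after quantile normalisation (adjusted p = 0.0551), which left 3 lower genes. The mean of the list was 7.11 to 9.18 in the femur, where femur 4 was the highest and the next was 7.40, and 7.86 to 11.07 in the humerus, where humerus 5 was the lowest and the next was 10.28.

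The bone list shares IBSP, ALPL and SPP1 with the hypertrophic list, and BGLAP was also lowest in humerus 5 among the humeral samples and highest in femur 4 among the femoral ones. Of 10 measured genes of the bone list 3 were lower in the femur (IBSP, ALPL and COL1A2) and 0 higher, with a median of -0.43, and after quantile normalisation 2 were lower and 1, DMP1, higher. BGLAP, osteocalcin, which osteoblasts secrete, was 5.01, 4.57, 6.39 and 4.97 in the femoral samples and ran from 5.25 to 12.30 with a median of 7.89 in the humerus, with the highest value in humerus 2 and the lowest in humerus 5. Its difference of -2.84 ± 1.04 was not called (adjusted p = 0.0651). COL1A2, a chain of the main collagen of bone and fibrous tissue, differed by -0.63 (adjusted p = 0.0385) and was not called after quantile normalisation (adjusted p = 0.0996). SPARC, abundant in both bone and cartilage, differed by -0.10. SP7, the transcription factor of osteoblasts, differed by 1.30 (adjusted p = 0.000746) on its dimmer probe set, the 1 of both that was called, and by 0.22 (adjusted p = 0.261) on its brighter one.

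**Figure D2:**
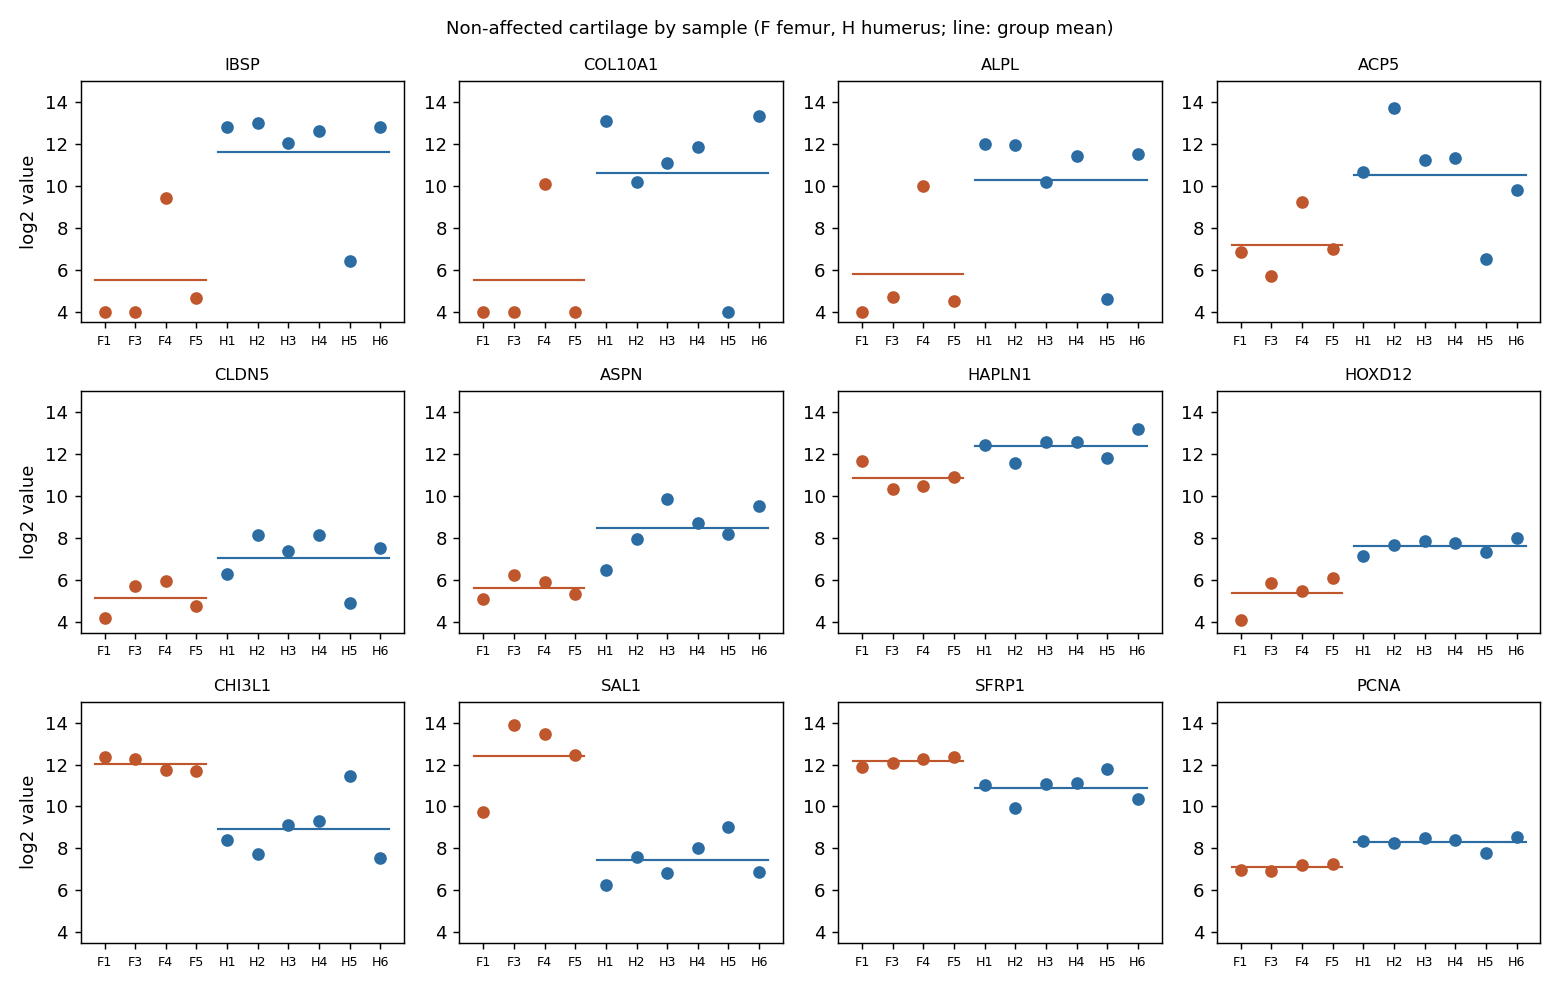
Log2 value of 12 genes in each of the 4 femoral (F, orange) and 6 humeral (H, blue) non-affected samples, with a line at each group mean; each gene is shown by its probe set with the smallest p. IBSP, COL10A1, ALPL and ACP5 were high in all humeral samples except humerus 5 and, among femoral samples, highest in femur 4, whereas HOXD12 and PCNA separated the sites with humerus 5 on the humeral side.

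ACP5, a marker of osteoclasts, was low in femoral cartilage and again in humerus 5. Tartrate-resistant acid phosphatase, the enzyme ACP5 encodes, was 6.86, 5.69, 9.23 and 7.01 in the femoral samples and ran from 6.50 to 13.70 with a median of 10.93 in the humerus, with a difference of -3.33 ± 1.11 (SE; adjusted p = 0.0467). Humerus 2 held the highest level and humerus 5, at 6.50, lay inside the femoral range. NFATC1, the master transcription factor of osteoclasts, was lower, at -0.86 (adjusted p = 0.00820) at levels near the floor, from 4.01 to 4.94 in the femur and 5.07 to 5.52 in the humerus. CALCR, the calcitonin receptor, was higher on its brighter probe set, at 0.54 (adjusted p = 0.0322), and gave -1.05 (adjusted p = 0.221) on the other. ITGB3, an integrin chain of osteoclasts, differed by -2.13 and missed the threshold (adjusted p = 0.0556), while the protease CTSK, which chondrocytes also make, differed by -0.25. In all, 2 of 7 measured osteoclast genes were lower and 1 higher.

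Vessel, macrophage and granulocyte markers varied widely from sample to sample. Of 9 endothelial genes 2 were lower in the femur and 1 higher, with a median of -0.99, and 1 was lower and 1 higher after quantile normalisation. CLDN5, a tight junction protein of endothelium, was 4.18, 5.72, 5.98 and 4.76 in the femoral samples and ran from 4.92 to 8.16 with a median of 7.45 in the humerus, a difference of -1.91 ± 0.60 (SE; adjusted p = 0.0385). TIE1, an endothelial receptor kinase, was lower, at -0.71 (adjusted p = 0.0218), a call lost after quantile normalisation (adjusted p = 0.0868), and ESAM, an endothelial adhesion molecule, higher by 0.49 (adjusted p = 0.0159). PECAM1, VWF, CDH5 and TEK, also markers of the lineage, differed by -1.46, -0.99, -1.69 and -1.28 and were not called. Over the list 6 differences were negative and 3, that of ESAM among them, positive. When the probe sets of each gene were averaged, the median of the list was -0.44. VWF lay at the floor in femur 1 and in humerus 5. The list mean was 5.51 to 7.22 in the femur and 6.18 to 7.96 in the humerus, with humerus 5 at the lowest of the latter.

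Of 8 myeloid genes 0 were lower and 1, PTPRC (CD45), higher by 0.41 (adjusted p = 0.0239). The macrophage genes CD163, AIF1 and TYROBP differed by -0.85, -1.06 and -0.86, none of them called. Over the myeloid list 5 differences were negative and 3 positive, with a median of -0.32, and -0.17 after quantile normalisation. The list mean spanned 6.14 to 7.88 in the femur and 5.57 to 8.62 in the humerus. Granulocyte genes (0 of 6 called by limma and 0 at an unadjusted p under 0.05, median -1.43) were high in single humeral samples. PR39, an antimicrobial peptide of pig neutrophils, was 13.78 in humerus 2, 9.22 in humerus 1 and 8.31 in humerus 6, against 4.0 to 5.64 in the femur, and differed by -3.07 (adjusted p = 0.140). The mean of the granulocyte list was 11.50 in humerus 2 and 4.43 to 4.93 in the femoral samples. Humerus 2 was also highest for AHSP, which stabilises alpha globin, at 8.93. HBB, beta globin, was the 1 erythroid gene of 5 that was lower in the femur, at -1.31 ± 0.33 (SE; adjusted p = 0.0159), with 6.75, 5.31, 6.27 and 6.45 in the femoral samples and values from 6.68 to 8.32 with a median of 7.56 in the humerus, where humerus 2 lay just below femur 1. Of 7 lymphocyte genes 0 were called by limma and 0 had an unadjusted p under 0.05, with differences from -0.16 for CD79B to 0.36 for CD4.

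**Figure D3:**
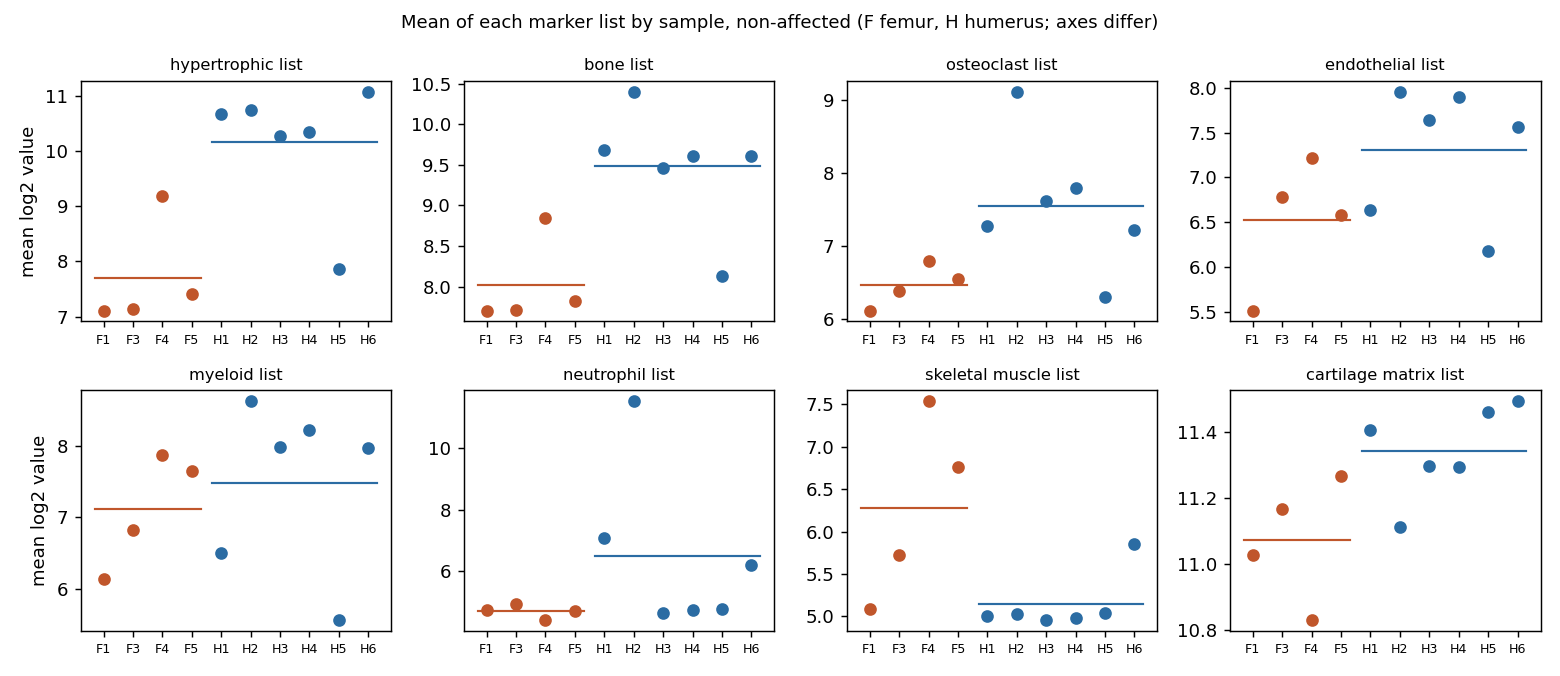
Mean log2 value of the measured genes of 8 marker lists in each non-affected sample (F femur, orange; H humerus, blue), with a line at each group mean and a separate vertical axis for each list. Humerus 5 lies with the femoral samples for the hypertrophic, bone, osteoclast and endothelial lists, below all other samples for the myeloid list, and with the humeral samples for cartilage matrix, and humerus 2 stands alone for the neutrophil list.

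How far the calls move with these mineralising samples was measured by adding the mean of the bone list as a covariate, an alternative chosen after the data were seen. With it 1559 probe sets were called (6.50%), 366 higher (1.53%) and 1193 lower (4.97%), and 279 of the 1928 higher calls (14.5%) and 947 of the 4044 lower calls (23.4%) were among them. With quantile normalisation as well 1388 were called (5.78%), 610 higher (2.54%) and 778 lower (3.24%). Of the named genes 1.83% were then called higher and 4.94% lower on the deposited scale. IBSP, a member of that list like ALPL, then differed by -0.84 (adjusted p = 0.526) and ACP5 by 0.93 (adjusted p = 0.330). The covariate was itself higher in the humerus, so joint and mineralising tissue cannot be told apart by a lost call. Humerus 5 lay nearer to the femoral mean than to that of the other humeral samples in 338 of the higher calls (17.5%). The same held for 780 of the lower calls (19.3%) and for 40.2% of all probe sets. Humerus 5 was part of the fit, which favours calls where it lies with the other humeral samples. The smaller shares among the calls therefore follow in part from this selection.

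Most hyaline matrix genes were not called, which also held for all named genes. Of 9 measured cartilage matrix genes 2 were lower in the femur and 0 higher, against 17.8% and 8.51% of all named genes. The median moved from -0.25 on the deposited scale to 0.07 after quantile normalisation. It was -0.03 on the deposited scale when the probe sets of each gene were averaged. HAPLN1, the link protein that ties aggrecan to hyaluronan, was 11.67, 10.32, 10.49 and 10.90 in the femoral samples and ran from 11.58 to 13.22 with a median of 12.51 in the humerus, a difference of -1.53 ± 0.33 (SE; adjusted p = 0.00839). Only femur 1, the highest femoral sample, reached the range of the humeral samples. COL11A1, a chain of the minor fibril collagen of cartilage, was 9.59, 9.76, 9.29 and 9.87 in the femoral samples and ran from 10.06 to 10.73 with a median of 10.43 in the humerus, without overlap, a difference of -0.81 ± 0.17 (SE; adjusted p = 0.00689). Both genes kept their call after quantile normalisation, at -1.39 and -0.69. COL2A1 differed by -0.26 (adjusted p = 0.327), ACAN by -0.46 (adjusted p = 0.0554), and SOX9, the transcription factor that maintains chondrocytes, by 0.64 (adjusted p = 0.0975). COMP, a matrix protein that bridges collagens, differed by -0.03 on its bright probe set and by 0.44 (adjusted p = 0.0370) on a dimmer one.

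Among genes of the superficial zone and of fibrous tissue, ASPN differed most. Asporin, a small leucine-rich proteoglycan that binds TGF-beta, was 5.09, 6.22, 5.89 and 5.32 in the femoral samples and ran from 6.47 to 9.88 with a median of 8.47 in the humerus. No femoral sample reached the humeral range, and humerus 5, at 8.21, lay well inside it. The difference was -2.84 ± 0.55 (SE; adjusted p = 0.00544), and -2.88 (adjusted p = 0.0698) with the bone covariate. It was the 1 gene of 5 called in the superficial zone list. TNC, tenascin C, differed by 0.77 and the transcription factor ERG by -0.76, neither of them called. In the fibrous list 1 of 12 genes was higher, FBLN1, a basement membrane and elastic fibre protein, at 0.70 (adjusted p = 0.0477), and 1 lower, COL1A2. COL5A1, a collagen that nucleates fibrils, was higher by 1.42 (adjusted p = 0.00267) on 1 of its 6 probe sets, and its brightest gave 0.45 (adjusted p = 0.181). LUM and POSTN differed by -2.01 and -1.18 and were not called.

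The genes listed as markers of the forelimb or the hindlimb could not be compared. The forelimb list (TBX5, SHOX2 and HOXC genes) and the hindlimb list (PITX1, TBX4, ISL1 and HOXC genes) had 0 members with a named probe set. Of 9 other limb patterning genes measured, 1 was called on its brightest probe set, lower in the femur. Over all named genes 17.8% were called lower and 8.51% higher. HOXD12, a gene of the 5′ end of the HOXD cluster that acts in the distal limb bud, was 4.12, 5.87, 5.48 and 6.11 in the femoral samples and ran from 7.15 to 8.02 with a median of 7.71 in the humerus. Every humeral sample, humerus 5 included at 7.34, lay above every femoral sample. The difference was -2.24 ± 0.33 (SE; adjusted p = 0.00212), and -2.08 after quantile normalisation. Its second probe set, dimmer at a mean of 4.83 in the femur and 4.55 in the humerus, gave 0.28 (adjusted p = 0.357). MEIS2, a homeobox cofactor of the proximal limb, was higher in the femur by 1.01 ± 0.24 (SE; adjusted p = 0.0129) on one probe set. Its brighter probe set gave 1.07 (adjusted p = 0.121), with humerus 5 at 8.64 above all femoral samples. HOXA9, HOXD8 and HOXD10 differed by -0.40, -0.16 and 0.04 and were not called.

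Several secreted signals differed between the joints. Of 20 measured genes of the BMP, TGF-beta and WNT list 2 were higher in the femur and 3 lower, shares close to the 8.51% and 17.8% over all named genes. SFRP1, a secreted WNT inhibitor, was 11.86, 12.06, 12.29 and 12.37 in the femoral samples and ran from 9.92 to 11.80 with a median of 11.05 in the humerus, all below the femoral samples, with humerus 5 the highest at 11.80. The difference was 1.27 ± 0.30 (SE; adjusted p = 0.0125). TGFB3 was higher by 0.67 ± 0.16 (SE; adjusted p = 0.0129), and TGFB2 lower, at -0.56 (adjusted p = 0.0461) on its brightest probe set and by -0.79 (adjusted p = 0.00999) on another. FST, follistatin, which captures activin and BMPs, was lower, at -1.35 (adjusted p = 0.0303), and LEF1, a nuclear mediator of WNT signals, by -1.11 (adjusted p = 0.0184) at levels close to the floor. The brightest probe set of TGFB2 lost its call after quantile normalisation (adjusted p = 0.124), when BMP4 was called higher, which gave 3 higher and 2 lower genes.

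Many genes of DNA replication and mitosis were lower in the femur. Of 20 measured cell cycle genes 10 were lower and 0 higher, against a background of 17.8% and 8.51%, with a median of -0.70, and 19 of 20 differences were negative. After quantile normalisation 7 were lower and 1, MCM4, higher, with a median of -0.57. PCNA, the sliding clamp of DNA polymerase, was 6.98, 6.92, 7.22 and 7.27 in the femoral samples and ran from 7.79 to 8.53 with a median of 8.39 in the humerus, without overlap, a difference of -1.21 ± 0.16 (SE; adjusted p = 0.00126). TOP2A, which untangles chromosomes, was 5.96, 4.61, 5.08 and 5.06 in the femoral samples and ran from 5.60 to 7.34 with a median of 6.73 in the humerus, a difference of -1.51 ± 0.34 (SE; adjusted p = 0.00958). Humerus 5 was the lowest humeral sample for both genes, and for TOP2A it lay below femur 1. CCNB1, which starts mitosis, was lower, at -1.35 (adjusted p = 0.0124), RRM2, which makes deoxynucleotides, by -1.32 (adjusted p = 0.0163), the ubiquitin enzyme UBE2C by -1.30 (adjusted p = 0.0251) and TYMS, which makes thymidylate, by -0.77 (adjusted p = 0.00356). MCM5, of the replication helicase, had 1 dim probe set higher by 1.28 (adjusted p = 0.00275) and a brighter one at -0.16 (adjusted p = 0.599). With the bone covariate 1 gene of the list, PCNA, was still called lower, by -0.86 (adjusted p = 0.0407). Humerus 5, the lowest humeral sample for PCNA and TOP2A, was also lowest for the means of many lists. These were the cell cycle, hypertrophic, bone, osteoclast, endothelial, fibrous, myeloid, adipocyte, respiratory chain, protease and interferon lists. It was the highest humeral sample for the hypoxia, endoplasmic reticulum stress, immediate early and other limb patterning list means.

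Ribosomal protein genes differed by little and in a way that followed the scale. Of 37 genes 9 were lower and 0 higher on the deposited scale (median -0.24), and 1 lower and 1 higher after quantile normalisation (median 0.02). RPS18 was lower, at -0.53 (adjusted p = 0.00507) and still by -0.35 (adjusted p = 0.0251) after quantile normalisation. Respiratory chain genes, with 6 of 26 lower and 0 higher, had a median of -0.15 that turned to 0.01 after quantile normalisation. Even so 4 of them stayed lower there, among them ATP5J of the ATP synthase, the complex I subunit NDUFB3 and cytochrome c, CYCS, which differed by -0.92, -0.88 and -0.97 on the deposited scale. ATP5J was 8.11, 7.96, 7.93 and 8.02 in the femoral samples and ran from 8.50 to 9.17 with a median of 8.98 in the humerus, without overlap (adjusted p = 0.00200).

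Few stress and oxygen response genes were called. Of 16 hypoxia and glycolysis genes 1 was lower, LDHA at -0.54 (adjusted p = 0.0402), and it lost its call after quantile normalisation, when 2 other genes of the list, CA9 and PFKFB4, were higher. VEGFA differed by 0.12 on its bright probe set, with the highest value in humerus 5 at 13.31. Of 18 genes of the endoplasmic reticulum stress list 1, CRELD2, was lower at -0.52 (adjusted p = 0.0224), a call lost after quantile normalisation, when SDF2L1 was called higher. Of 11 immediate early genes 2 were lower, MYC at -0.79 ± 0.16 (SE; adjusted p = 0.00740) and FOS at -0.81 (adjusted p = 0.0127), and FOS was not called after quantile normalisation (adjusted p = 0.0828). Of 17 proteases and inhibitors MMP13 was the 1 gene called. Of 18 interferon genes 1, the peptide transporter TAP1, was called higher by 1.02 (adjusted p = 0.00200) on its brightest probe set, but another of its probe sets was lower, at -1.18 (adjusted p = 0.000827), so no direction can be given for the gene. After quantile normalisation 3 genes of the list were called higher, the others being MX2 and GBP1.

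Muscle genes were higher in part of the femoral samples. Of 15 muscle genes 4 were called higher and 0 lower, against a background of 8.51% and 17.8%, with a median of 0.92, and 8 were called higher after quantile normalisation. The slow myosin MYH7 was 5.23, 5.65, 6.45 and 6.47 in the femoral samples and ran from 4.63 to 5.24 with a median of 5.01 in the humerus, a difference of 0.96 ± 0.24 (SE; adjusted p = 0.0150), and the troponin TNNT3 differed by 0.87 (adjusted p = 0.0164). The list mean was 7.54 in femur 4 and 6.76 in the next femoral sample, femur 5, and 4.96 to 5.85 in the humerus. Creatine kinase, CKM, reached 9.37 in femur 4 and 8.19 in femur 5 against 4.95 in femur 1, and was not called (adjusted p = 0.0562). Of 10 adipocyte genes 3 were higher, PPARG at 0.80 (adjusted p = 0.00241), ADIPOQ at 0.55 and LEP at 0.60. ADIPOQ was low at both sites, at 5.39 to 5.92 in the femur and 4.92 to 5.22 in the humerus, below the array medians. LPL and SCD, which hydrolyse and desaturate lipids in many tissues, were lower, by -1.23 ± 0.23 (SE; adjusted p = 0.00469) and -1.05 ± 0.21 (SE; adjusted p = 0.00574). SCD was 10.54, 10.57, 9.97 and 10.79 in the femoral samples and ran from 11.01 to 12.09 with a median of 11.52 in the humerus, without overlap. EIF1AY, a gene of the Y chromosome, was 4.39, 4.55, 4.65 and 5.77 in the femoral samples. It lay between 4.0 and 4.22 in humerus 1, 2 and 3, against 6.86 to 7.61 in humerus 4, 5 and 6. The gene was not called by limma (adjusted p = 0.464), but its level varied within the humeral group. Sex was not part of the fit, and its balance between the sites was not tested.

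**Figure D4:**
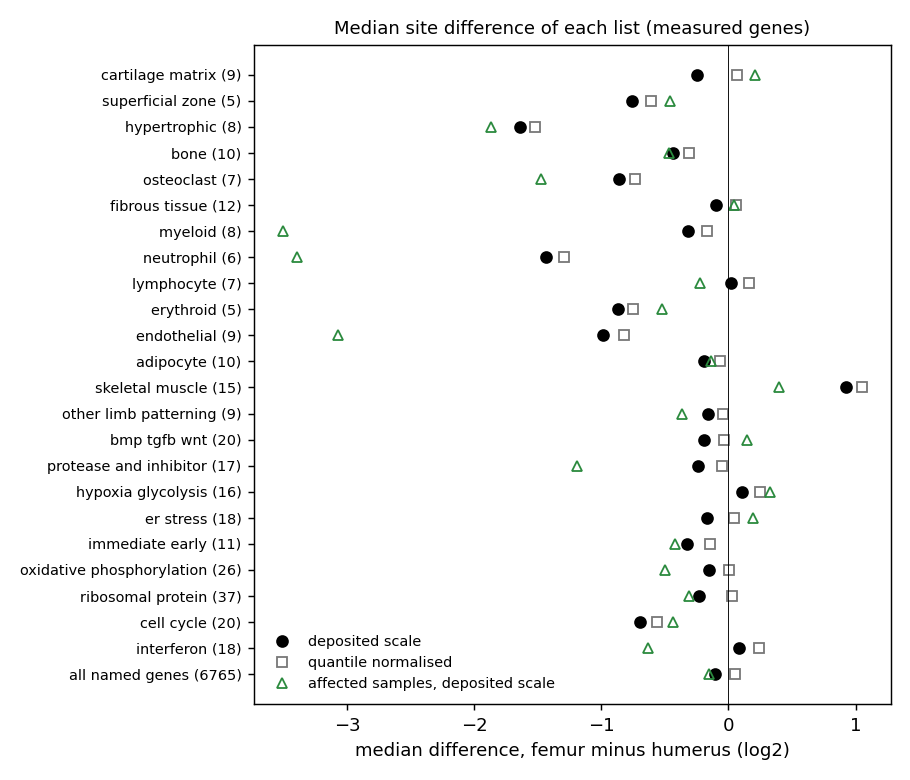
Median difference between femur and humerus (log2) of the measured genes of each list, with their number in brackets, for non-affected samples on the deposited scale (filled circles), after quantile normalisation (open squares) and for affected samples on the deposited scale (open triangles). Among the non-affected medians those of the hypertrophic, neutrophil and endothelial lists lie furthest to the left and that of skeletal muscle to the right, the affected medians reach furthest left for the myeloid list, and the medians of cartilage matrix, fibrous tissue, endoplasmic reticulum stress, respiratory chain and ribosomal protein genes change sign between the scales.

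The 12 named genes with the largest differences on the femoral side had non-overlapping groups in 12 of 12 cases, against 70.0% of all higher calls and 6.37% of all probe sets, and were chosen for their size. SAL1, a salivary lipocalin that binds pheromones, was 9.72, 13.87, 13.48 and 12.46 in the femoral samples and ran from 6.27 to 9.04 with a median of 7.22 in the humerus, a difference of 4.95 ± 0.75 (SE; adjusted p = 0.00218). Femur 1 was the lowest femoral sample and humerus 5 the highest humeral one. CHI3L1, a secreted glycoprotein of chondrocytes and synovium, was 12.35, 12.25, 11.76 and 11.67 in the femoral samples and ran from 7.57 to 11.44 with a median of 8.77 in the humerus, a difference of 3.08 ± 0.61 (SE; adjusted p = 0.00598). Humerus 5, at 11.44, lay just below the femoral samples and far above the next humeral sample. CHI3L1 was the 1 gene of the 12 for which humerus 5 was nearer to the femur, against 17.5% of all higher calls and 40.2% of all probe sets. With the bone covariate 10 of the 12 were still called, CHI3L1 and CES1 being the exceptions. Of all higher calls 14.5% were still called higher with it, and 1.53% of all probe sets were. BPIFA2, a secretory protein of the parotid gland, differed by 3.11 ± 0.55 (SE; adjusted p = 0.00379), and STC1, the secreted hormone stanniocalcin, by 2.38 ± 0.40 (SE; adjusted p = 0.00326). A second probe set of STC1 was also higher, by 1.55, and the third lower, by -0.86. CES1, a carboxylesterase, was 9.20, 7.39, 5.45 and 8.34 in the femoral samples, a wide spread, against 4.88 to 5.37 in the humerus, and differed by 2.48 ± 0.54 (SE; adjusted p = 0.00849).

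For other genes of this group a single probe set carried the difference. FAU, which encodes a ribosomal protein, was 8.86, 8.79, 7.95 and 8.57 in the femoral samples and 4.99 to 5.45 in the humerus on 1 of its 5 probe sets, a difference of 3.34 ± 0.18 (SE; adjusted p = 4.53e-06). Its brightest probe set read -0.11 (adjusted p = 0.474). CIT, a kinase of cytokinesis, differed by 2.05 ± 0.17 (SE; adjusted p = 0.000125) on one probe set and by -0.16 and -0.29 on its other 2 probe sets. FAM46C, a poly(A) polymerase, gave 1.83 on one probe set and -0.13 on the other, and LOC396794 gave 2.24 and 0.01. SART1, a spliceosome factor, was higher by 2.25 and by 0.53 on both of its probe sets. SPAG11, a defensin-like gene known from the epididymis, and POU1F1, a pituitary transcription factor, were higher by 1.97 and 1.78, the latter on 1 of its 5 probe sets. Of 295 genes with several called probe sets, 44 (14.9%) had calls in both directions, and 36 of 277 after quantile normalisation.

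The 12 named genes with the largest differences on the humeral side were mostly genes that humerus 5 shared with the femur. IBSP, ALPL, ACP5 and ASPN led them. Humerus 5 was nearer to the femoral mean for 11 of the 12, ASPN being the exception, against 19.3% of all lower calls and 40.2% of all probe sets. The groups did not overlap for 2 of the 12, against 60.1% of all lower calls and 10.9% of all probe sets. MAL, a protein of membrane rafts, was 5.88, 5.52, 6.58 and 5.72 in the femoral samples and ran from 6.36 to 9.22 with a median of 8.54 in the humerus, a difference of -2.39 ± 0.47 (SE; adjusted p = 0.00565). GJA5, connexin 40 of arterial endothelium, differed by -2.55 ± 0.70 (SE; adjusted p = 0.0221), and ECSCR, an endothelial surface protein, by -2.29 ± 0.67 (SE; adjusted p = 0.0283). PTGFR, the receptor of prostaglandin F, was lower, at -2.40 (adjusted p = 0.0424), the LIM domain protein FHL2 by -2.34 (adjusted p = 0.0239) and FNDC1 by -2.42 (adjusted p = 0.0399). GPM6B, a membrane protein also found in bone cells, was lower, at -2.32 (adjusted p = 0.0367). PSAP, the precursor of saposins, was lower, at -2.48 on a dim probe set, while its bright one gave 0.02. With the bone covariate 0 of the 12 were called by limma (adjusted p from 0.0698 to 0.998), and 1, ASPN, had an unadjusted p under 0.05. Of all lower calls 23.4% were still called lower with it, and 4.97% of all probe sets were. IBSP and ALPL are members of the bone list, so the covariate holds their own values.

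The same contrast in affected cartilage used other samples, although the pigs were sampled as sib pairs and the sets may share families. There 6704 probe sets were called (27.9%), 2330 higher (9.71%) and 4374 lower (18.2%), and after quantile normalisation 6953 (29.0%), 4025 higher (16.8%) and 2928 lower (12.2%). Of the higher calls 910 were called higher in both statuses (47.2% of the non-affected and 39.1% of the affected calls), and of the lower calls 1876 (46.4% and 42.9%). Opposite calls numbered 13 and 4. The hybridisation controls split both sets of arrays by site, so the part of array level in this overlap cannot be told apart from that of the joint. IBSP was 10.02, 4.0, 9.60 and 6.91 in the 4 affected femoral samples and ran from 11.30 to 13.66 with a median of 12.70 in the affected humerus, a difference of -5.07 (adjusted p = 0.00143). ALPL differed by -3.89, ACP5 by -6.92, HOXD12 by -1.40 (adjusted p = 0.0109), SAL1 by 3.48 and CHI3L1 by 2.81, each of them called and on the same side as in non-affected cartilage. Of the leading 12 genes on the humeral side 11 were called lower in affected femur too, ASPN being the exception at -0.82 (adjusted p = 0.247). Of the 12 on the femoral side 4 were called higher and 1, CES1, lower. Of the macrophage, granulocyte and endothelial genes, 6 of 8, 6 of 6 and 6 of 9 were called lower in the affected femur, with medians of -3.50, -3.39 and -3.07, against 24.5% of all named genes called lower there and 8.47% higher. No list was tested for a difference between the statuses.

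Whether the site difference itself changed with status was tested in a fit of the 4 group means over 21 samples. It was called for 61 of 23999 probe sets (0.254%), 52 where the difference was more positive in non-affected cartilage (0.217%) and 9 where it was more negative (0.0375%), and after quantile normalisation for 57 (0.238%), 49 (0.204%) and 8 (0.0333%). Of the 52, 40 were among the higher calls of the non-affected comparison, against 8.03% of all probe sets. The tested difference contains the non-affected site difference itself, which favours this overlap. The 5 named genes with the smallest p in this test were CIT, FAU, HAAO, SPAG11 and SPINK14. FAU was 6.78, 4.64, 5.73 and 5.45 in the affected femoral samples and ran from 4.96 to 5.83 with a median of 5.29 in the affected humerus, so that its site difference was 0.28 there and the difference of both was 3.07 (adjusted p = 0.000457). CIT, SPAG11 and the protease inhibitor SPINK14 had site differences of -0.0048, 0.41 and 0.01 in affected cartilage, against 2.05, 1.97 and 1.37 in non-affected cartilage. HAAO, an enzyme of tryptophan breakdown, differed mainly in affected cartilage, with 0.19 (adjusted p = 0.257) in non-affected and -1.43 (adjusted p = 0.000228) in affected cartilage. IBSP, ALPL and ASPN showed no call in this test, with differences of -1.03, -0.60 and -2.02 (adjusted p = 0.805, 0.912 and 0.235). The count of 61 was sensitive to single samples, at 27 without affected femur 3, 37 without non-affected humerus 6, 39 without non-affected humerus 5, 39 and 40 without affected humerus 2 and 4, and 111 without affected femur 1.

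**Figure D5:**
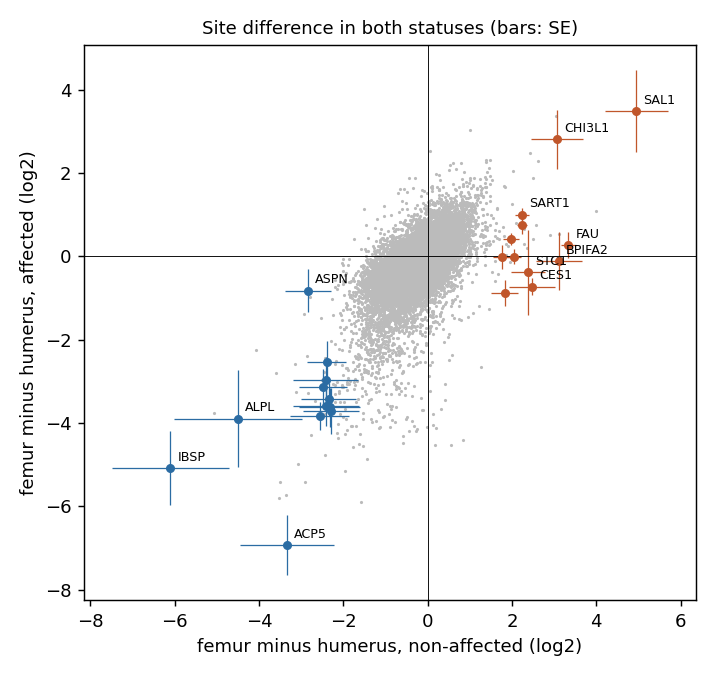
Difference between femur and humerus (log2) in non-affected samples (horizontal) against that in affected samples (vertical), for all 23999 probe sets (grey) and the 12 leading genes in each direction (orange, higher in femur; blue, lower), with bars of 1 SE. SAL1 and CHI3L1 lie far from 0 on both axes, FAU, BPIFA2 and STC1 lie near 0 on the vertical axis, and all 12 blue points are negative on both axes.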

How the data were processed

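The deposited table held, per the labels, arrays of pig articular cartilage, with 1 log2 value per probe set and array, as deposited by the authors. GCOS 1.1.1 is named in the submitters' processing notes, with the normalisation method not given in the sources used here. Of 24123 probe sets 124 were controls, which left 23999. The platform annotation gave 1 gene symbol for 10069 of these, several for 198 and none for 13732, and named 6765 genes. Arrays of a group whose values differed by a standard deviation under 0.25 were averaged. limma 3.58.1 (R 4.3.3; lmFit, eBayes) fitted 10 non-affected samples with 8 residual degrees of freedom, adjusted by Benjamini-Hochberg over 23999 probe sets, with a call at an adjusted p under 0.05; the steps were tested on simulated data. The affected samples were fitted alone, and the difference of the site effect with 4 group means over 21 samples. The members, gene lists and rules were chosen with earlier results of these data known. Named were genes with 1 symbol, by their probe set with the smallest p, called on both scales and of the same sign without humerus 5, the 12 largest per direction, up to 4 of the smallest p per list, and the 5 smallest p for the site-by-status test; other list members, such as COL10A1, were named after their values were seen. Counts per list used the brightest probe set of each gene. Array measures were compared by two-sided exact permutation (scipy 1.17.1, Python 3.11.15), and plots drawn with matplotlib 3.10.9. Alternatives covered scaling, filters, the floor, variance models, array weights, probe sets per gene, single arrays, the bone list as a covariate and leaving out each sample. The small number of arrays limits the precision.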

Additional observations from a re-analysis of the deposited data

Results flagged for a closer look

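Some samples stood far from the rest of their group. Of 286 groups of 4 or 6 samples checked (genes named by the rules above, list means and array measures), 24 had a highest or lowest sample beyond Dixon's 95% limit, where chance gives about 1 in 20. Genes named after their values were seen, such as COL10A1, were not checked. Femur 4 stood high among femoral samples for IBSP (9.42), ALPL (9.98), FNDC1 (9.50) and the means of the bone (8.84) and hypertrophic (9.18) lists, and low for the 3′ minus 5′ difference of actin (2.43). Humerus 5 stood low among humeral samples for IBSP (6.41), ALPL (4.64), MAL (6.36), FAM46C (5.67), PCNA (7.79) and the means of the hypertrophic (7.86) and respiratory chain (10.24) lists, and high for TNC (12.78) and SRY (5.52). Humerus 2 stood high for S100A12 (9.29), AHSP (8.93), CIT (5.08) and the mean of the granulocyte list (11.50). The other 5 cases were ACAN in femur 3 (13.67), MMP13 in femur 1 (4.06), PTPRC in femur 5 (5.64), IFIT1 in humerus 3 (8.18) and the muscle list mean in humerus 6 (5.85).

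The site difference changed with status, by the test of that change in limma, for 9 of the genes named in the comparisons, and for AQP5 and AZGP1, which were looked up afterwards and are given with the gland genes. Non-affected minus affected, the site difference of the 9 was 3.20 for CES1, 3.07 for FAU, 2.71 for FAM46C, 2.06 for CIT, 1.62 for HAAO, 1.57 for SPAG11, 1.49 for LOC396794, 1.35 for SPINK14 and 1.24 for SART1. Each was more positive in non-affected cartilage. CIT, FAU, HAAO, SPAG11 and SPINK14 were named for the smallest p in this same test. Of the 9 genes 7 were leading genes on the femoral side, chosen for a large positive difference in non-affected cartilage. The count and the shared direction thus follow in part from the choice of genes. Over all 23999 probe sets 61 were called (0.254%), 52 more positive and 9 more negative.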

How the results depend on the processing

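The total of 5972 calls was 6105 after quantile normalisation, but the split turned from 1928 higher and 4044 lower to 3476 and 2629 there, to 3901 and 2451 with arrays centred on their median, and to 3701 higher after quantile normalisation without humerus 5. With 1 probe set per gene, which tests fewer probe sets, 1840 were called, 621 higher and 1219 lower. With the bone covariate, added after the data were seen, 1559 were called (366 and 1193), and with quantile normalisation as well 1388 (610 and 778); the cause was not tested. Under the bone covariate the sign turned for ALPL (1.28), ACP5 (0.93), FNDC1 (0.37), PTH1R (0.38) and CLDN5 (0.016), and with quantile normalisation as well for ALPL (1.36), ACP5 (1.04), FNDC1 (0.52), PTH1R (0.49), CLDN5 (0.15) and FHL2 (0.13), none of them called. Leaving out 1 sample gave 3780 (without femur 3) to 6339 calls, 1203 to 2023 higher (1203 without femur 3, 1256 without humerus 6) and 2577 to 4316 lower, and 27 to 111 calls for the change of the site difference with status. Of 77 called probe sets of named genes 71 kept their call after quantile normalisation, 26 with the bone covariate, and 59 to 75 when 1 sample was left out. The 12 leading genes of each direction were named only if called after quantile normalisation too, so they could not lose that call. Among all probe sets the 1928 higher calls all kept it, and 2629 of the 4044 lower calls (65.0%) did. No paired analysis was possible because the labels do not say which arrays belong to sibs or to the same animal. Values near the floor limit the size of a difference that can be measured.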

Other observations

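Secretory gland genes were looked up after SAL1 and BPIFA2 had been seen among the leading genes, so the following values are a description with no test of the group. In non-affected cartilage AQP5, a water channel of glands, was 1.67 higher in the femur, AZGP1, a secreted zinc-binding glycoprotein, 1.61 higher on one probe set and -0.16 on the other, and BPIFA1 0.50 higher. Of other gland genes, PIP differed by -0.35, LPO by -0.09, MUC19 by -0.02, KLK1 by -0.04, DMBT1 by 0.01 and OBP by 0.16, and none of these 6 was called on the deposited scale, after quantile normalisation or after centring, nor was TCN1 on its 2 probe sets (-0.23 and -0.37). PIGR was not called on the deposited scale (0.31 and 0.15), but its first probe set was higher after quantile normalisation (0.42, adjusted p = 0.0338 in limma) and after centring (adjusted p = 0.0217). AMY2 was lower on 1 of 3 probe sets, at -0.56, a call lost after quantile normalisation (-0.37, adjusted p = 0.0784) and after centring (adjusted p = 0.0687), when another of its probe sets was higher (0.41, adjusted p = 0.0463). The site difference was 2.09 more positive in non-affected than in affected cartilage for AQP5 and 2.20 for the higher probe set of AZGP1 (adjusted p = 0.0374 and 0.00524 in limma).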
